A study of Mus musculus with 16 samples.

Results

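The lysosomal acidification and hydrolase genes described here are a list of 37 non-cathepsin lysosomal genes, each read from its probe set with the highest mean signal among those with a single gene symbol. Of these, 36 were measured among the 19938 genes tested, and Atp6v0c is not analysed here. They comprise 15 pump genes (5 of V0, 8 of V1 and 2 accessory subunits), 4 membrane proteins, 2 transcription factors, 13 hydrolases and 2 lumenal proteins without a hydrolase role of their own.

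The lysosome is the acidic compartment in which cells break down proteins, sugars and lipids. In dendritic cells (DCs), which take up antigen and present it to T cells, it is also where antigen is cut and loaded. Its acid comes from the vacuolar proton pump (V-ATPase), made of a cytosolic V1 part that splits ATP and a V0 part in the membrane that passes the protons, and its lumen is filled with hydrolases that need low pH. TFEB and TFE3 are transcription factors of the MiT/TFE family that switch on pump and hydrolase genes together.

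RNA was hybridised to 16 Affymetrix Mouse Gene 1.0 ST arrays, which give 1 log2 signal per probe set. Mice of the B6 strain lacked the MHC class II transactivator (Ciita -/-, KO) or carried both copies (Ciita +/+, WT), and all of them, KO and WT, also carried 1 Zbtb46 GFP allele, a reporter of the classical DC lineage. CD24+ cells, which include the cDC1 subset, and CD172a+ cells, which include the cDC2 subset, were sorted from bone marrow (BM) cultures grown for 9 days in 5% Flt3l and activated with gamma interferon and then with LPS for 4 hours, or from spleens at homeostasis. The labels give the time in gamma interferon as 16 hours in one place and 22 hours in another, and they give no age of the mice. The 8 groups held 2 arrays each, from 8 mice that each gave 1 CD24+ and 1 CD172a+ array.

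The sorts were checked against marker genes. In the spleen, 8 of 8 cDC1 markers were higher and 8 of 8 cDC2 markers lower in CD24+ than in CD172a+ cells. In the culture, 7 of 8 cDC1 markers were higher in CD24+ cells, but of the cDC2 markers only Sirpa (which encodes CD172a), Irf4 and Clec4a4 were lower. Of 4 pan-DC markers, 3 were lower (Itgax, Dpp4 and Flt3) and Zbtb46, the gene that carries the reporter, was higher in cultured than in spleen CD172a+ cells on the median-centred scale. Zbtb46 read 9.16, 9.31, 8.98 and 9.02 in cultured CD172a+ arrays, against 8.39, 8.34, 8.39 and 8.38 in spleen CD172a+ arrays. Itgax read 8.29, 7.86, 8.66 and 8.60 in cultured CD172a+ arrays, against 13.06, 12.91, 12.93 and 12.91 in spleen CD172a+ arrays. Array medians over the genes tested lay between 6.89 and 6.97 in the culture and between 7.37 and 7.39 in the spleen, so the tissues look normalised as separate sets. Changes between culture and spleen are therefore given after each array was centred on its median, and are set beside the changes in the deposited values. Tissue, activation and any array batch cannot be told apart in them. The small number of arrays limits the precision of every value, and in RNA of a sorted population fewer cells of a type and less RNA per cell cannot be told apart. Values per array are given in the order KO replicate 1, KO replicate 2, WT replicate 1, WT replicate 2, as deposited, errors after ± are SEs of the fit on the log2 scale, and levels of different genes are not compared, since they come from different probes.

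Activated culture and spleen differed in opposite directions for parts of the lysosomal gene set. In CD24+ cells, 11 of the 15 pump genes were higher in the culture and 0 were lower (median change 0.49 on the log2 scale), while 0 of the 13 hydrolases were higher and 10 were lower (median -1.07). In CD172a+ cells, 8 pump genes were higher and 4 lower (median 0.14), while 1 hydrolase was higher and 11 were lower (median -1.77). Over the whole set, 27 of 36 members were past an adjusted p of 0.05 (limma) in CD24+ cells, 16 higher and 11 lower. Among all genes 76.6% were past it, 47.1% higher and 29.5% lower, with a median change of 0.13. In CD172a+ cells 31 of 36 members were past it, 13 higher and 18 lower. The share of all genes was 78.9%, with 49.4% higher and 29.5% lower and a median of 0.15. In CD24+ cells the set as a whole, with a median of 0.12, thus stood near the background of genes that differ between culture and spleen. Its pump and hydrolase members took different sides there on this scale. In CD172a+ cells the median of the whole set was -0.28, against 0.15 for all genes. In CD172a+ cells the pump median of 0.14 stood near the 0.15 of all genes, and it was the hydrolases that departed from the background.

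The direction of the smaller changes rested on the scaling. In the deposited values the median of all genes was 0.34 lower in culture than in spleen in CD24+ cells and 0.28 lower in CD172a+ cells. On that scale the pump split in CD24+ cells was 5 higher and 5 lower, and the hydrolase split 0 and 13. In CD172a+ cells the pump split was 4 higher and 10 lower, and the hydrolase split 0 and 12. After quantile normalisation over the 16 arrays, the pump split was 8 higher and 4 lower in CD24+ cells and 6 and 7 in CD172a+ cells. The hydrolase split was 0 and 10 in CD24+ cells and 2 and 11 in CD172a+ cells. On this scale the median of all genes was 0.05 in CD24+ and 0.07 in CD172a+ cells. The pump medians were 0.33 and -0.09, and the hydrolase medians -1.33 and -1.70. In the deposited values the pump medians were 0.03 and -0.29, and the hydrolase medians -1.54 and -2.20. The shares of all genes called on either scale are not reported here, so these splits have no background share beside them. With centred arrays 59.3% of the called members were higher in cultured CD24+ cells, against 32.3% in the deposited values and 43.3% after quantile normalisation, and the same shares in CD172a+ cells were 41.9%, 23.5% and 35.3%. Called the same way under all 3 scalings in both subsets were 8 members that were higher in the culture (Atp6v0a1, Atp6v1a, Atp6v1b2, Atp6v1g1, Lamp1, Lamp2, Scarb2 and Tfe3) and 10 that were lower (Tfeb, Glb1, Gusb, Lipa, Man2b1, Naglu, Sgsh, Smpd1, Asah1 and Acp5). No pump gene was among the 10, and no hydrolase among the 8. In CD172a+ cells taken alone, however, 4 pump genes were higher and 4 lower under all 3 scalings. The lower ones were Atp6v0b, Atp6v0d1, Atp6ap1 and Atp6ap2. In CD24+ cells taken alone, 5 pump genes were higher and 0 lower under all 3.

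**Figure D1:**
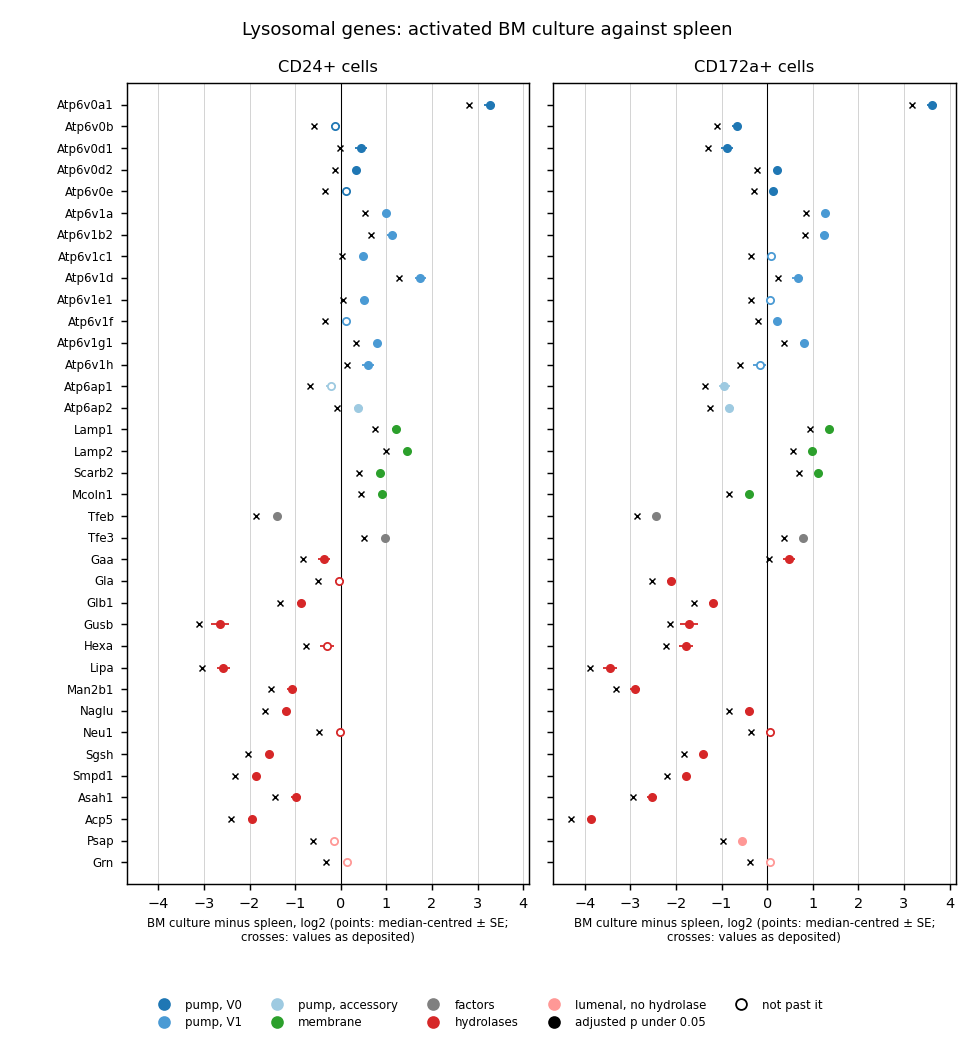
Change of each of the 36 lysosomal genes between activated BM culture and spleen (culture minus spleen, log2), in CD24+ cells on the left and CD172a+ cells on the right, with 4 arrays a side. Points are changes of median-centred values with their SE, filled where the adjusted p is under 0.05, crosses are changes of the deposited values, and colours give the role. Most hydrolases lie left of 0 in both panels, down to -3.87 for Acp5, and Atp6v0a1 lies furthest to the right in both, at 3.27 and 3.61.

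Within V0, the gene that stood out was Atp6v0a1, an isoform of the large membrane subunit that forms the path of the protons. It read 11.86, 12.51, 12.18 and 11.81 in cultured CD24+ arrays, against 9.24, 9.24, 9.36 and 9.31 in spleen CD24+ arrays. In CD172a+ cells it read 12.49, 12.39, 12.34 and 12.44 in culture, against 9.37, 9.17, 9.11 and 9.26 in spleen. The lowest culture array was far above the highest spleen array in each subset. The centred changes were 3.27 ± 0.12, adjusted p = 2.32e-10, in CD24+ cells (9.63-fold) and 3.61 ± 0.12, adjusted p = 6.82e-11, in CD172a+ cells (12.2-fold). Of the isoforms of this subunit on a wider list of pump genes, Tcirg1 and Atp6v0a2 were lower in cultured CD24+ cells, and the direction of Atp6v0a4 turned with the scaling. In CD172a+ cells its centred change was 0.16 ± 0.05, but in the deposited values it averaged 6.42 in culture, against 6.69 in spleen, with every culture array below every spleen array. Tcirg1, the isoform best known from osteoclasts and phagocytes, was lower in the culture in both subsets (centred changes -1.70 ± 0.12 in CD24+ and -1.76 ± 0.12 in CD172a+ cells), and read 9.95, 9.34, 9.92 and 10.02 in cultured CD24+ arrays, against 11.95, 12.03, 11.95 and 11.93 in spleen CD24+ arrays. Atp6v0a2, the isoform linked to the Golgi and endosomes, was also lower in cultured CD24+ cells (-0.87 ± 0.06).

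The d subunit of V0 joins the membrane part to the rotor and exists as a widely used form, Atp6v0d1, and a form known from osteoclasts and macrophages, Atp6v0d2. Atp6v0d1 read 9.84, 9.11, 9.61 and 9.65 in cultured CD24+ arrays, against 9.52, 9.62, 9.64 and 9.48 in spleen CD24+ arrays. Among CD172a+ arrays it read 8.61, 8.59, 8.91 and 8.64 in culture, against 9.95, 10.07, 9.92 and 10.04 in spleen. The ranges overlapped in CD24+ cells, whereas in CD172a+ cells every culture array was lower than every spleen array. The centred change in CD24+ cells was 0.45 ± 0.13, adjusted p = 0.00941, but in the deposited values it was -0.02, and in CD172a+ cells it was -0.88 ± 0.13, adjusted p = 6.93e-05, and lower under all 3 scalings. Atp6v0d2 gave no signal that stood clear of the low end of the arrays. It read 4.27, 4.43, 4.38 and 4.41 in cultured CD24+, 4.27, 4.37, 4.35 and 4.25 in cultured CD172a+, 4.50, 4.47, 4.57 and 4.48 in spleen CD24+ and 4.56, 4.55, 4.50 and 4.49 in spleen CD172a+ arrays, and only 4.14% of genes had a mean at or below its own. Its small centred rises (0.33 and 0.21) turned to -0.14 and -0.22 in the deposited values. Atp6v0b, a proteolipid of the rotor ring, was lower in cultured CD172a+ cells (-0.67 ± 0.10, adjusted p = 5.88e-05). In CD24+ cells its centred change of -0.12 was not past the threshold, but it was called lower in the deposited values (-0.58) and after quantile normalization (-0.48). The small subunit Atp6v0e changed sign with the scaling in both subsets (centred 0.12 and 0.14, deposited -0.34 and -0.29).

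Among V1 genes, 7 of 8 were higher in cultured CD24+ cells and 5 of 8 in cultured CD172a+ cells, with 0 lower in either, on the centred scale, on which 47.1% and 49.4% of all genes were higher. Under all 3 scalings Atp6v1a, Atp6v1b2 and Atp6v1g1 were higher in both subsets and Atp6v1d in CD24+ cells. Atp6v1a encodes the catalytic subunit and Atp6v1b2 the nucleotide-binding subunit beside it. Atp6v1a read 9.22, 9.14, 9.18 and 9.18 in cultured CD24+ arrays, against 8.83, 8.76, 8.53 and 8.47 in spleen CD24+ arrays. In CD172a+ cells it read 9.73, 9.46, 9.51 and 9.66 in culture, against 8.85, 8.81, 8.63 and 8.69 in spleen. Neither pair of ranges overlapped, and the centred changes were 0.99 ± 0.07, adjusted p = 5.10e-08, and 1.27 ± 0.07, adjusted p = 4.42e-09. Atp6v1b2 read 11.35, 10.90, 11.11 and 11.12 in cultured CD24+ arrays, against 10.53, 10.52, 10.34 and 10.43 in spleen CD24+ arrays. Its CD172a+ arrays read 11.01, 10.63, 10.82 and 10.97 in culture, against 9.95, 10.03, 10.11 and 10.01 in spleen. All culture arrays were again higher, and the centred changes were 1.12 ± 0.10 and 1.26 ± 0.10.

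Atp6v1d, a subunit of the central rotor stalk, had the second highest change of the set in CD24+ cells. It read 11.56, 11.10, 11.42 and 11.46 in cultured CD24+ arrays, against 10.23, 10.22, 10.16 and 9.80 in spleen CD24+ arrays, with no overlap (1.74 ± 0.13, adjusted p = 1.12e-07). In CD172a+ cells it read 10.72, 10.29, 10.39 and 10.62 in culture, against 10.37, 10.25, 10.15 and 10.29 in spleen, the ranges overlapped, and the centred change was 0.67 ± 0.13. Atp6v1g1 of the peripheral stalks changed by 0.80 ± 0.07 and 0.80 ± 0.07, and its second probe set gave 0.80 in each subset. Atp6v1f sits at the top of the rotor stalk, and its change was 0.12 in CD24+ cells (not past the threshold) and 0.22 in CD172a+ cells, or -0.02 and 0.08 from its second probe set, and -0.34 and -0.21 in the deposited values. Atp6v1c1 and Atp6v1h, which bear on assembly of V1 with V0, and Atp6v1e1 of the peripheral stalks were higher in cultured CD24+ cells by 0.49, 0.60 and 0.51 on the centred scale, but by 0.03, 0.14 and 0.05 in the deposited values, where none was called. None of these 3 was past the threshold in CD172a+ cells, where their centred changes were 0.08 for Atp6v1c1, 0.07 for Atp6v1e1 and -0.16 for Atp6v1h, and the deposited ones -0.34, -0.36 and -0.59. The accessory subunits Atp6ap1 and Atp6ap2, which help the pump assemble and reach its membrane, were lower in cultured CD172a+ cells (-0.94 ± 0.11 and -0.84 ± 0.10), under all 3 scalings. Atp6ap2 was higher in cultured CD24+ cells (0.38 ± 0.10), but its change was -0.08 in the deposited values, and Atp6ap1 was not past the threshold there (-0.21 ± 0.11), although it was called lower in the deposited values (-0.67) and after quantile normalization (-0.43).

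The membrane proteins Lamp1 and Lamp2, the abundant glycoproteins that line the lysosome, were higher in the culture in both subsets. Lamp2 read 12.21, 12.01, 12.15 and 12.09 in cultured CD24+ arrays, against 11.12, 11.23, 11.06 and 11.08 in spleen CD24+ arrays, a centred change of 1.45 ± 0.06, adjusted p = 1.55e-09. Lamp1 read 10.75, 10.68, 10.81 and 10.61 in cultured CD172a+ arrays, against 9.65, 9.87, 9.84 and 9.73 in spleen CD172a+ arrays, a centred change of 1.37 ± 0.08, adjusted p = 1.03e-08. In neither case did culture and spleen arrays overlap. Lamp1 in CD24+ cells read 10.54, 10.76, 10.42 and 10.19 in culture, against 9.83, 9.75, 9.64 and 9.68 in spleen (1.21 ± 0.08), and Lamp2 in CD172a+ cells changed by 0.98 ± 0.06. Scarb2, the receptor that carries glucocerebrosidase to the lysosome, was higher by 0.86 ± 0.05 and 1.12 ± 0.05. It read 10.09, 10.21, 10.02 and 10.01 in cultured CD172a+ arrays, against 9.32, 9.31, 9.45 and 9.47 in spleen CD172a+ arrays. Mcoln1, the calcium channel of the lysosomal membrane, was higher in cultured CD24+ cells (0.91 ± 0.06) and lower in cultured CD172a+ cells (-0.40 ± 0.06), in both cases under all 3 scalings.

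The 2 transcription factors of the set went opposite ways in the culture. Tfeb read 6.99, 6.87, 7.10 and 7.02 in cultured CD24+ arrays, against 8.83, 8.77, 8.95 and 8.87 in spleen CD24+ arrays. In CD172a+ cells it read 7.02, 6.90, 7.13 and 7.06 in culture, against 9.92, 9.78, 9.87 and 9.95 in spleen. Every culture array was lower than every spleen array, and the centred changes were -1.40 ± 0.06, adjusted p = 1.24e-09, and -2.43 ± 0.06, adjusted p = 7.82e-12 (2.63-fold and 5.38-fold lower). Tfe3 read 9.97, 10.08, 10.03 and 9.81 in cultured CD24+ arrays, against 9.35, 9.42, 9.49 and 9.56 in spleen CD24+ arrays. The CD172a+ arrays of Tfe3 read 10.16, 10.09, 10.05 and 10.08 in culture, against 9.60, 9.73, 9.80 and 9.81 in spleen. Here the culture arrays were the higher ones without overlap, and the centred changes were 0.98 ± 0.06, adjusted p = 1.85e-08, and 0.79 ± 0.06, adjusted p = 1.09e-07.

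TFEB and TFE3 bind an E-box-type element with the core CACGTG, often preceded by T. Promoter sequences from RefSeq (GRCm38.p6, 250 bases before to 50 after the gene start) were held for 30 of the 36 members. The letters TCACGTG, searched on both strands, were found in 11 of these 30 (36.7%) and in 4.29% of the promoters of 27025 genes. The shorter CACGTG, which every TCACGTG contains, was found in the same 11 and in 8.09% of all promoters. Matches were spread over the roles, in 4 of 10 pump genes, 5 of 12 hydrolases and 2 of the other 8 members. They therefore occurred in members that were higher and in members that were lower in the culture. The stretches around the matches are shown for the 5 members with a match that went the same way in both subsets under all 3 scalings, Atp6v1a and Lamp1 upward and Glb1, Naglu and Sgsh downward. They run 5′ to 3′ along the strand of the gene, and capitals mark TCACGTG or its reverse complement CACGTGA, which run together where they overlap.
Atp6v1a: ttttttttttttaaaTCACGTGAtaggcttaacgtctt
Lamp1: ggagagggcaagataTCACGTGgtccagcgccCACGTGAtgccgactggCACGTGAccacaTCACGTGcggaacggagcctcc
Glb1: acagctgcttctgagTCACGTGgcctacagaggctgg
Naglu: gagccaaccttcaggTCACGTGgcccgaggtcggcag
Sgsh: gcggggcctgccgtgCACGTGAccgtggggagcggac
Their positions are chr16:44139369-44139406 on the minus strand for Atp6v1a, chr8:13159084-13159166 on the plus strand for Lamp1, chr9:114401014-114401050 on the plus strand for Glb1, chr11:101070005-101070041 on the plus strand for Naglu and chr11:119355518-119355554 on the minus strand for Sgsh. Lamp1 held 4 matches and each of the others 1. A match describes the letters in the window and does not show that a factor was bound there.

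Hydrolases of glycans, lipids and phosphate esters were among the members that fell in the culture. In CD24+ cells the 5 lowest members were Gusb, Lipa, Acp5, Smpd1 and Sgsh. Gusb, the beta-glucuronidase that acts on glycosaminoglycans, read 9.35, 8.37, 8.84 and 9.31 in cultured CD24+ arrays, against 12.17, 12.14, 12.08 and 11.91 in spleen CD24+ arrays (-2.65 ± 0.19, adjusted p = 1.17e-07). Lipa, the acid lipase that frees cholesterol from its esters, read 8.16, 7.34, 7.75 and 7.98 in culture, against 11.09, 10.92, 10.73 and 10.63 in spleen (-2.57 ± 0.15, adjusted p = 1.52e-08). Smpd1, the acid sphingomyelinase, read 6.33, 6.27, 6.37 and 6.40 in culture, against 8.85, 8.71, 8.63 and 8.44 in spleen (-1.85 ± 0.06, adjusted p = 7.64e-11). In all of these the culture arrays were the lower ones without overlap, with fold changes of 6.26, 5.95 and 3.62. Acp5, the tartrate-resistant acid phosphatase of osteoclasts and macrophages, read 6.58, 7.00, 6.63 and 6.61 in cultured CD24+ arrays, against 9.16, 9.44, 9.06 and 8.80 in spleen CD24+ arrays (-1.95 ± 0.09). Sgsh, a sulfatase that degrades heparan sulfate, read 6.83, 6.99, 6.96 and 6.92 in culture, against 8.99, 8.88, 8.97 and 8.99 in spleen (-1.57 ± 0.07). These ranges did not overlap either.

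In CD172a+ cells the 5 lowest members were Acp5, Lipa, Man2b1, Asah1 and Tfeb. Acp5 read 6.84, 6.99, 6.96 and 6.96 in cultured CD172a+ arrays, against 11.24, 11.31, 11.18 and 11.19 in spleen CD172a+ arrays (-3.87 ± 0.09, adjusted p = 4.07e-12). Lipa read 6.49, 6.52, 6.68 and 6.61 in culture, against 10.58, 10.25, 10.47 and 10.51 in spleen (-3.45 ± 0.15, adjusted p = 8.52e-10). These are 14.6-fold and 10.9-fold decreases with no overlap between arrays. Man2b1, the lysosomal alpha-mannosidase, read 8.92, 8.98, 9.23 and 9.23 in culture, against 12.53, 12.35, 12.36 and 12.39 in spleen (-2.89 ± 0.11, adjusted p = 2.88e-10). Asah1, the acid ceramidase, read 8.50, 8.35, 8.46 and 8.30 in culture, against 11.47, 11.22, 11.40 and 11.34 in spleen (-2.53 ± 0.12, adjusted p = 1.64e-09). The culture arrays lay far below the spleen arrays in both. Among the remaining hydrolases, Gla, the alpha-galactosidase of globosides, and Hexa, the alpha subunit of the hexosaminidase that degrades gangliosides, were lower in cultured CD172a+ cells (-2.10 ± 0.10 and -1.79 ± 0.15) but not past the threshold in cultured CD24+ cells (-0.03 ± 0.10 and -0.31 ± 0.15). Those CD24+ values depended on the scaling: in the deposited values both were called lower (-0.49 for Gla and -0.77 for Hexa), and after quantile normalization Hexa was called lower (-0.64) and Gla was not called (0.15). Glb1, the beta-galactosidase, and Naglu, which acts on heparan sulfate, were lower in both subsets. Gaa, which degrades glycogen, was lower in cultured CD24+ cells (-0.36 ± 0.13) and higher in cultured CD172a+ cells (0.47 ± 0.13), but neither call held under all 3 scalings: the CD24+ value was -0.26 and not called after quantile normalization, and the CD172a+ value was 0.05 and not called in the deposited values. The CD24+ call was also lost, at values between -0.37 and -0.23, when any of 5 arrays was left out (cultured CD24+ KO replicate 1 and WT replicate 2, and spleen CD24+ KO replicates 1 and 2 and WT replicate 2). Neu1, a sialidase, was past the threshold in neither subset, with centred changes of -0.01 and 0.07 (95% intervals -0.19 to 0.18 and -0.12 to 0.26). In the deposited values, however, the changes of Neu1 were -0.47 and -0.36, both called lower. Psap, the precursor of the saposins that help lipid hydrolases, was lower in cultured CD172a+ cells (-0.55 ± 0.06) and not past the threshold in CD24+ cells (-0.14 ± 0.06), where it was called lower in the deposited values (-0.60) and after quantile normalization (-0.39), and Grn, which encodes progranulin, was past the threshold in neither subset and changed sign with the scaling.

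Marker genes of other cell types also differed between culture and spleen. The summed linear signal of 11 macrophage markers ranged from 1351.6 to 1468.9 in cultured CD172a+ arrays and from 4219.0 to 7040.6 in spleen CD172a+ arrays, and in CD24+ cells it ranged from 1208.9 to 1240.1 in culture and from 1620.6 to 2265.5 in spleen, both as deposited. On the centred scale the single markers went both ways, with 3 of the 11 higher and 6 lower in cultured CD172a+ cells, and 5 higher (among them Mertk, 1.41 ± 0.24) and 4 lower (among them Spic, -2.29 ± 0.14) in cultured CD24+ cells. Of the 7 osteoclast markers, Dcstamp and Ocstamp were lower in cultured CD24+ cells (-3.36 ± 0.19 and -3.13 ± 0.11), Nfatc1 and Calcr were higher (0.60 ± 0.06 and 0.31 ± 0.05), and Ctsk, Mmp9 and Oscar were not past the threshold. In cultured CD172a+ cells 2 of the 7 were higher and 3 lower. Of the 5 pDC markers, 2 were higher and 3 lower in cultured CD24+ cells on the centred scale, and 2 and 1 in cultured CD172a+ cells. In CD172a+ cells Tcf4 was higher (2.68 ± 0.09) and Siglech was not past the threshold (-0.29 ± 0.13). The summed linear signal of the 5 ranged from 13104.6 to 14473.7 in cultured and from 4266.5 to 5082.5 in spleen CD172a+ arrays. In CD24+ arrays it ranged from 11158.6 to 12361.2 in culture and from 5936.0 to 6420.2 in spleen. Of 5 monocyte markers, 1 was higher and 3 lower in cultured CD24+ cells, and 0 and 4 in cultured CD172a+ cells. These splits were 1 and 7, and 1 and 0, for 9 neutrophil markers, and 0 and 4, and 0 and 3, for 4 T cell markers. They were 1 and 2, and 2 and 2, for 4 B cell markers, and 0 and 1, and 1 and 0, for 2 erythroid markers. Of all genes, 47.1% were higher and 29.5% lower in CD24+ cells, and 49.4% and 29.5% in CD172a+ cells. The part of these marker genes in the lysosomal changes was not tested.

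**Figure D2:**
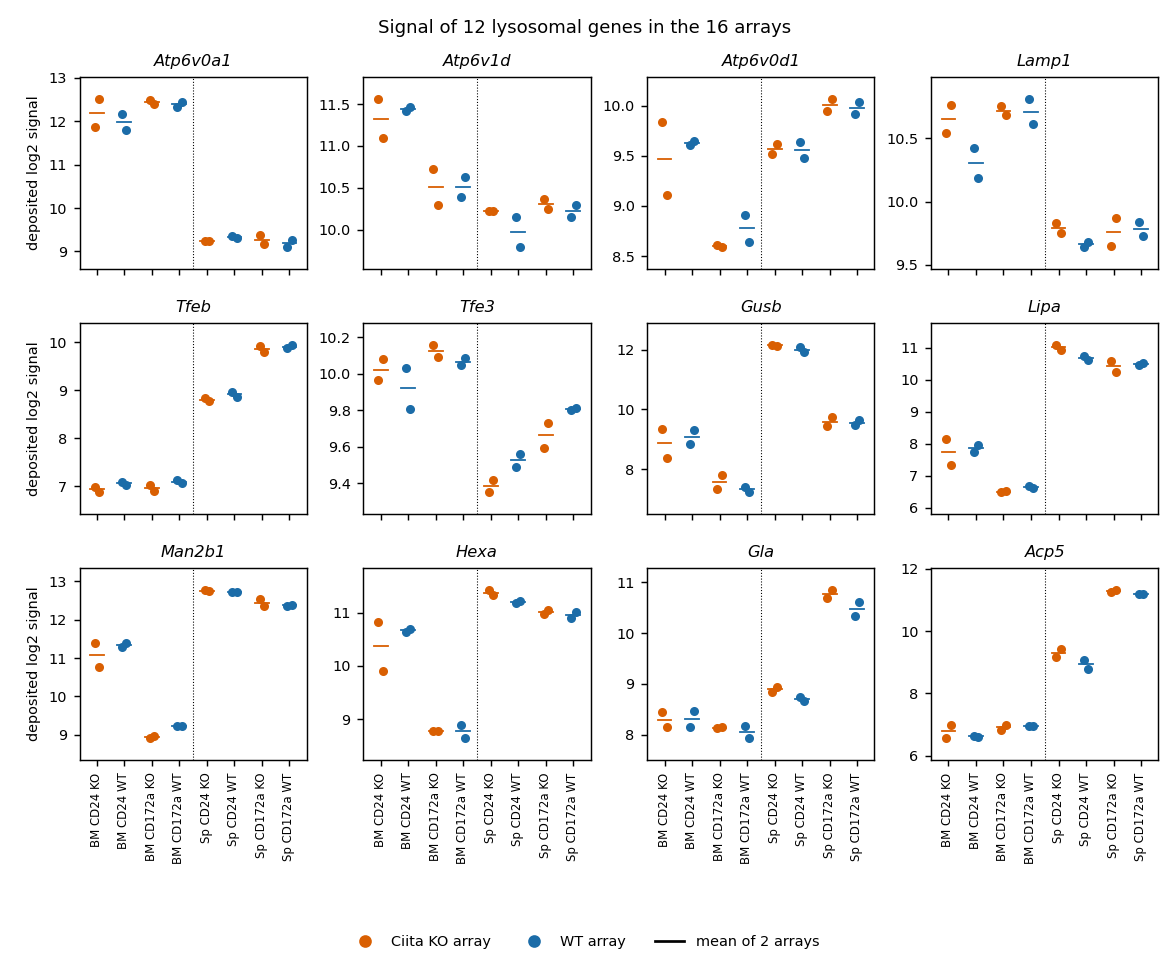
Deposited log2 signal of 12 lysosomal genes in each of the 16 arrays, with BM culture (BM) left and spleen (Sp) right of the dotted line, orange for Ciita KO, blue for WT, and a bar at the mean of the 2 arrays of a group. The y axes differ between genes. Atp6v0a1 lies at 11.81 or above in the culture arrays and at 9.37 or below in the spleen arrays, Tfeb shows the reverse order, and Hexa and Man2b1 are lowest in the cultured CD172a+ arrays.

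The second question of the design is how CD24+ and CD172a+ cells differ. In the culture, 24 of 36 members differed between CD24+ and CD172a+ cells, 20 higher and 4 lower in CD24+ cells, with a median of 0.26. Among all genes 24.9% differed, 11.2% higher and 13.7% lower, with a median of -0.03. In the spleen, 17 members differed, 9 higher and 8 lower in CD24+ cells, with a median of 0.00. The background there was 29.1%, with 15.6% higher and 13.4% lower and a median of 0.03. Higher in CD24+ cells in both tissues were 7 members, Atp6v0e, Scarb2, Gusb, Man2b1, Asah1, Psap and Grn, and lower in both was Neu1. These comparisons stay within a tissue, so they do not depend on the offset between culture and spleen.

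In cultured cells the 5 members with the highest CD24+ minus CD172a+ differences were hydrolases. Man2b1 read 11.39, 10.76, 11.27 and 11.40 in cultured CD24+ arrays, against 8.92, 8.98, 9.23 and 9.23 in cultured CD172a+ arrays (2.12 ± 0.10, adjusted p = 7.10e-08). Asah1 read 10.41, 9.82, 10.46 and 10.34 in CD24+ arrays, against 8.50, 8.35, 8.46 and 8.30 in CD172a+ arrays (1.85 ± 0.11, adjusted p = 2.45e-07). Hexa read 10.83, 9.91, 10.65 and 10.70 in CD24+ arrays, against 8.78, 8.78, 8.89 and 8.65 in CD172a+ arrays (1.75 ± 0.14, adjusted p = 3.54e-06). All 4 CD24+ arrays were above all 4 CD172a+ arrays for each of them, with fold changes of 4.33, 3.61 and 3.36. Gusb read 9.35, 8.37, 8.84 and 9.31 in CD24+ arrays, against 7.33, 7.79, 7.42 and 7.22 in CD172a+ arrays (1.53 ± 0.19, adjusted p = 7.64e-05). Lipa read 8.16, 7.34, 7.75 and 7.98 in CD24+ arrays, against 6.49, 6.52, 6.68 and 6.61 in CD172a+ arrays (1.23 ± 0.14, adjusted p = 4.68e-05). These ranges did not overlap, although the KO replicate 2 array of cultured CD24+ cells was the lowest of the 4 CD24+ arrays for all of Man2b1, Asah1, Hexa, Gusb and Lipa. Without that array, the 5 differences were 2.27, 2.00, 1.98, 1.77 and 1.44. Psap was higher by 1.18 ± 0.06 and Grn by 0.71 ± 0.08.

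Of the pump genes, 9 were higher and 1 lower in cultured CD24+ than in cultured CD172a+ cells. Atp6ap2 read 11.23, 10.69, 11.00 and 11.09 in CD24+ arrays, against 9.81, 9.83, 9.78 and 9.80 in CD172a+ arrays (1.20 ± 0.09, adjusted p = 1.99e-06). Atp6v1d and Atp6v0d1 were higher by 0.88 ± 0.12 and 0.86 ± 0.13, without overlap in the array values given above. The catalytic subunit gene Atp6v1a was the pump gene that was lower (-0.41 ± 0.06, adjusted p = 0.000429), and its cultured CD24+ arrays all lay below the CD172a+ arrays. Atp6v0a1 was not past the threshold (-0.32 ± 0.12, adjusted p = 0.0755). Mcoln1 was higher (0.99 ± 0.06). The other 3 members that were lower were Gaa, Neu1 and Lamp1. Gaa read 8.62, 9.19, 8.60 and 8.14 in CD24+ arrays, against 9.94, 9.92, 9.66 and 9.28 in CD172a+ arrays (-1.06 ± 0.13, adjusted p = 8.86e-05). Neu1 read 8.35, 8.36, 8.23 and 8.24 in CD24+ arrays, against 8.91, 8.57, 8.63 and 8.61 in CD172a+ arrays (-0.38 ± 0.08). Both sets of CD24+ arrays were lower without overlap, whereas those of Lamp1 overlapped (-0.23 ± 0.08). Atp6v1c1, Atp6ap1 and Lamp1 were past the threshold in the full fit but not in each fit that left out 1 array.

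In the spleen fewer members were called between the subsets than in culture, and the highest value was that of Gusb. Gusb read 12.17, 12.14, 12.08 and 11.91 in spleen CD24+ arrays, against 9.45, 9.74, 9.47 and 9.65 in spleen CD172a+ arrays (2.50 ± 0.19, adjusted p = 5.48e-07, 5.65-fold). Naglu read 8.79, 8.92, 8.97 and 8.72 in CD24+ arrays, against 7.54, 7.64, 8.06 and 8.21 in CD172a+ arrays (0.99 ± 0.09, adjusted p = 4.79e-06). Scarb2 read 10.27, 10.32, 10.19 and 10.19 in CD24+ arrays, against 9.32, 9.31, 9.45 and 9.47 in CD172a+ arrays (0.85 ± 0.05, adjusted p = 4.12e-08). CD24+ arrays were the higher ones throughout. Psap read 13.91, 13.94, 13.85 and 13.94 in CD24+ arrays, against 13.19, 13.15, 13.15 and 12.93 in CD172a+ arrays (0.80 ± 0.06). Grn read 12.74, 12.75, 12.59 and 12.54 in CD24+ arrays, against 12.00, 12.12, 11.89 and 11.95 in CD172a+ arrays (0.67 ± 0.08). Neither pair overlapped.

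Lower in spleen CD24+ cells were above all Acp5, Gla and Tfeb. Acp5 read 9.16, 9.44, 9.06 and 8.80 in CD24+ arrays, against 11.24, 11.31, 11.18 and 11.19 in CD172a+ arrays (-2.11 ± 0.09, adjusted p = 4.42e-09, 4.33-fold). Gla read 8.84, 8.95, 8.74 and 8.66 in CD24+ arrays, against 10.70, 10.84, 10.35 and 10.62 in CD172a+ arrays (-1.83 ± 0.10, adjusted p = 1.96e-08). The CD172a+ arrays were higher without overlap. Tfeb differed by -1.03 ± 0.06, adjusted p = 2.88e-08, and Tfe3 by -0.28 ± 0.06, in the array values given above. The pump was nearly even in the spleen, with 2 genes higher (Atp6v0e and Atp6v1b2) and 2 lower (Atp6v0d1 and Atp6ap1), and a median of -0.02. Atp6ap1 read 10.77, 10.70, 10.64 and 10.70 in CD24+ arrays, against 11.18, 10.92, 11.05 and 11.02 in CD172a+ arrays (-0.34 ± 0.10). Atp6v0d1 differed by -0.43 ± 0.13, and both pairs of ranges were apart. Calls for Atp6v0d1, Atp6ap1, Man2b1, Neu1 and Asah1 were lost in at least 1 fit that left out 1 array, and the count of lower members was 5 without CD24+ KO replicate 1 or without CD172a+ WT replicate 2. Beside these differences, 7 of 11 macrophage markers were lower in spleen CD24+ than in spleen CD172a+ cells, Adgre1 among them with a difference of -4.14 ± 0.27, and their summed linear signal ranged from 1620.6 to 2265.5 in CD24+ and from 4219.0 to 7040.6 in CD172a+ arrays. Neutrophil markers summed to between 917.0 and 6299.1 in spleen CD24+ arrays and to between 798.0 and 1143.3 in spleen CD172a+ arrays. The highest CD24+ array was KO replicate 2, in which Ngp read 10.51, against 7.63 in KO replicate 1 and 8.68 and 5.91 in WT arrays. The part of these markers in the spleen differences was not tested.

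**Figure D3:**
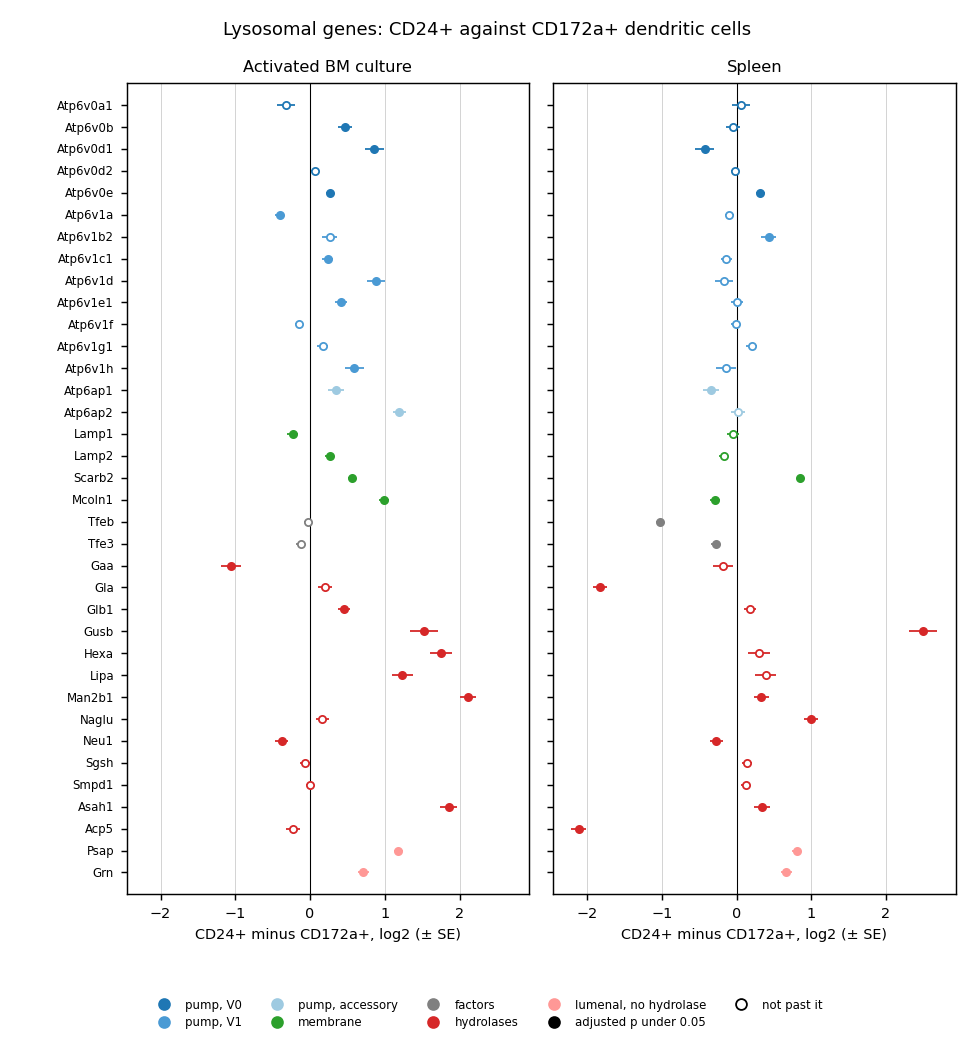
Difference of each of the 36 lysosomal genes between CD24+ and CD172a+ cells (CD24+ minus CD172a+, log2, with SE), in activated BM culture on the left and spleen on the right, with 4 arrays a side. Points are filled where the adjusted p is under 0.05. In the culture most filled points lie right of 0, up to 2.12 for Man2b1, while in the spleen they lie on both sides, from -2.11 for Acp5 to 2.50 for Gusb.

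The change of the subset difference between tissues was tested as an interaction, in which the offset between tissues cancels. It was past the threshold for 23 of 36 members, 18 with a more positive CD24+ minus CD172a+ difference in the culture and 5 with a more negative one, against 28.2% of all genes (12.5% and 15.7%). The median was 0.33 for the members and -0.06 for all genes. All 23 stayed past the threshold in every fit that left out 1 array. The 5 highest were Gla, Acp5, Man2b1, Asah1 and Hexa. Gla changed by 2.03 ± 0.13, adjusted p = 3.96e-07, with the spleen CD172a+ arrays alone high. Its cultured arrays read 8.45, 8.14, 8.15 and 8.47 in CD24+ cells and 8.13, 8.15, 8.17 and 7.94 in CD172a+ cells, and these ranges overlapped. Acp5 changed by 1.88 ± 0.13, adjusted p = 7.31e-07, with the same spleen arrays the highest. Man2b1 (1.78 ± 0.15), Asah1 (1.51 ± 0.15) and Hexa (1.45 ± 0.20) had their lowest values in the cultured CD172a+ arrays. The 5 lowest were Gusb (-0.97 ± 0.26), Gaa (-0.87 ± 0.19), Naglu (-0.82 ± 0.13), Atp6v1a (-0.31 ± 0.09) and Scarb2 (-0.29 ± 0.07). Of the 15 pump genes 8 were more positive and 1 more negative. Atp6v0d1, Atp6ap1 and Mcoln1 were lower in CD24+ cells in the spleen and higher in CD24+ cells in the culture, with interactions of 1.29 ± 0.18, 0.69 ± 0.15 and 1.27 ± 0.09. No member showed the reverse order. Tfeb, which differed between subsets in the spleen but not past the threshold in the culture, had an interaction of 1.00 ± 0.08, adjusted p = 1.82e-06. The cultured arrays of Tfeb and Acp5 lay near the array medians in both subsets. How far they stood above background was not tested.

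The effect of losing Ciita, on which transcription of MHC class II genes depends, is the first question of the study. As a check of the labels, H2-Aa read 9.87 and 9.78 in cultured CD172a+ KO arrays, against 13.52 and 13.51 in WT arrays. H2-Ab1, H2-Eb1 and Cd74 were lower in KO in each of the 4 combinations of tissue and subset, and H2-Aa in all but spleen CD24+ cells, where it changed by -0.51 ± 0.13, adjusted p = 0.653. Ciita itself was past the threshold in none, and in the spleen it read 11.28 and 10.93 in CD172a+ KO arrays, against 11.40 and 11.27 in WT arrays. In the culture its KO arrays were lower without overlap. Cultured CD172a+ cells read 8.35 and 7.17 in KO arrays, against 10.15 and 10.62 in WT arrays. Cultured CD24+ cells read 9.70 and 8.14 in KO arrays, against 10.51 and 10.85 in WT arrays. No source used here says whether its probes lie in the deleted part, so Ciita's own signal checks nothing.

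None of the 36 lysosomal members was past the threshold between KO and WT in these 4 comparisons or over the 8 mice. In cultured CD24+ cells 0 members were called, against 0.0953% of all genes, and 2 had an unadjusted p under 0.05. In cultured CD172a+ cells it was 0 members against 0.0602% of genes, with 5 at an unadjusted p under 0.05. In spleen CD24+ cells it was 0 against 0.0602%, with 3, and in spleen CD172a+ cells 0 against 0.0802%, with 2. Over the mouse means it was 0 against 0.0903%, with 5. The most positive of the differences in single combinations was 0.53 (Gaa in cultured CD24+ cells) and the most negative -0.54 (Naglu in spleen CD172a+ cells).

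The 3 members with the smallest p in each combination are given with their arrays. In cultured CD24+ cells Lamp1 read 10.54 and 10.76 in KO arrays, against 10.42 and 10.19 in WT arrays (0.35 ± 0.11, adjusted p = 0.577). Gaa read 8.62 and 9.19 in KO arrays, against 8.60 and 8.14 in WT arrays (0.53 ± 0.19, adjusted p = 0.613). Asah1 read 10.41 and 9.82 in KO arrays, against 10.46 and 10.34 in WT arrays (-0.28 ± 0.15, adjusted p = 0.766). KO and WT arrays did not overlap for Lamp1 and Gaa but did for Asah1. In cultured CD172a+ cells Atp6v0e read 11.96 and 12.03 in KO arrays, against 11.70 and 11.77 in WT arrays (0.26 ± 0.08, adjusted p = 0.567). Smpd1 read 6.25 and 6.19 in KO arrays, against 6.47 and 6.46 in WT arrays (-0.24 ± 0.08, adjusted p = 0.584). Mcoln1 read 9.33 and 9.46 in KO arrays, against 9.14 and 9.18 in WT arrays (0.24 ± 0.09, adjusted p = 0.664). The arrays of the genotypes did not overlap in these, yet none passed the adjustment over all genes.

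In spleen CD24+ cells the smallest p belonged to Atp6v1a, which read 8.83 and 8.76 in KO arrays, against 8.53 and 8.47 in WT arrays (0.29 ± 0.09, adjusted p = 0.861). Smpd1 read 8.85 and 8.71 in KO arrays, against 8.63 and 8.44 in WT arrays (0.25 ± 0.08, adjusted p = 0.931). Acp5 read 9.16 and 9.44 in KO arrays, against 9.06 and 8.80 in WT arrays (0.37 ± 0.13, adjusted p = 0.968). All had the KO arrays above the WT arrays. In spleen CD172a+ cells Naglu read 7.54 and 7.64 in KO arrays, against 8.06 and 8.21 in WT arrays (-0.54 ± 0.13, adjusted p = 0.401). Smpd1 read 8.49 and 8.37 in KO arrays, against 8.63 and 8.66 in WT arrays (-0.22 ± 0.08, adjusted p = 0.818). Gla read 10.70 and 10.84 in KO arrays, against 10.35 and 10.62 in WT arrays (0.29 ± 0.13, adjusted p = 0.962). The KO arrays were lower for Naglu and Smpd1 and higher for Gla. Smpd1 thus had a positive difference in spleen CD24+ cells and negative ones in both CD172a+ populations, all short of the threshold. Over the 8 mice the smallest p values belonged to Atp6v0e (0.11 ± 0.04, 95% interval 0.02 to 0.20), Neu1 (0.13 ± 0.05, 0.02 to 0.25) and Gla (0.14 ± 0.05, 0.02 to 0.26), with adjusted p values of 0.795, 0.796 and 0.801.

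The 2 KO arrays of cultured CD24+ cells stood apart from each other. Hexa read 10.83 in KO replicate 1 and 9.91 in KO replicate 2, against 10.65 and 10.70 in the WT arrays. Markers of the sort differed too. Xcr1 read 10.84 and 9.58 in the KO arrays, against 10.41 and 10.87 in WT arrays. Sirpa read 8.36 and 9.17, against 8.38 and 8.43. Clec9a, Cd8a, Cadm1, Tlr3 and Wdfy4 were also lowest in KO replicate 2, while the cDC1 markers Itgae and Irf8 were highest there. The part of cell composition in the lysosomal values of this array was not tested. KO replicate 2 lay above both WT arrays for Atp6v0a1 and Gaa. It lay below both for Asah1, Atp6ap2, Atp6v0d1, Hexa, Lipa and Man2b1. With KO replicate 1 left out, 1 KO array remained and was assumed to vary like the other groups. These members were called between KO and WT in that fit, and in no other fit that left out 1 array. Such calls rest on a single KO array, and their share over all genes is not reported here. Whether the genotype effect differed between subsets or between tissues was also tested. In either test 0 of 36 members were called, against 3 and 5 of the 19938 genes tested. Of the members, 2 and 7 had an unadjusted p under 0.05 (limma). The share of all genes at that level is not reported here, so these 2 counts have no background beside them.

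**Figure D4:**
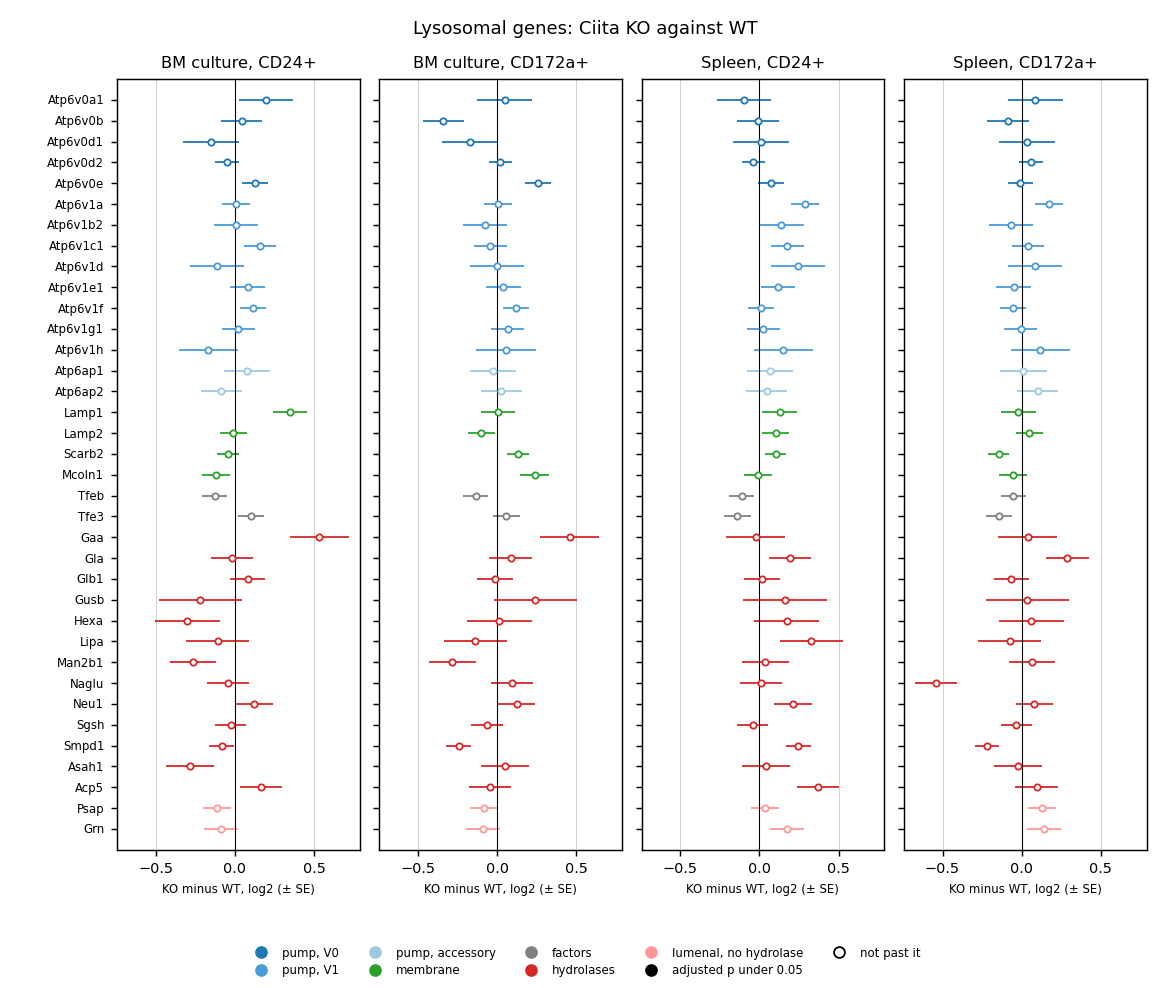
Difference of each of the 36 lysosomal genes between Ciita KO and WT (KO minus WT, log2, with SE) in the 4 combinations of tissue and subset, with 2 arrays a genotype in each. All points are open, since none had an adjusted p under 0.05, and all lie between -0.54 for Naglu in spleen CD172a+ cells and 0.53 for Gaa in cultured CD24+ cells.

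Wider lists of the same pathway gave the surroundings of these results. Of all genes, 47.1% were higher and 29.5% lower in cultured than in spleen CD24+ cells on the centred scale. In CD172a+ cells these shares were 49.4% and 29.5%. Against CD172a+ cells, 11.2% of all genes were higher and 13.7% lower in cultured CD24+ cells, and 15.6% and 13.4% in spleen CD24+ cells. Shares of all genes called in the deposited values are not reported here. Of 26 other lysosomal hydrolases and their activators, 4 were higher and 17 lower in cultured than in spleen CD24+ cells (median -0.42), and 2 were higher and 21 lower in CD172a+ cells (median -1.29). In the deposited values these splits were 1 and 23 in CD24+ cells and 1 and 24 in CD172a+ cells. Pld4, a nuclease of endolysosomes, was lower, with centred changes of -3.19 ± 0.18 in CD24+ and -5.23 ± 0.18 in CD172a+ cells. It read 6.56, 6.47, 7.45 and 7.24 in cultured CD172a+ arrays, against 12.59, 12.60, 12.56 and 12.57 in spleen CD172a+ arrays. Ppt2, a thioesterase, and Galc, which degrades galactosylceramide, were lower in cultured CD24+ cells (-3.50 ± 0.16 and -3.24 ± 0.12). Between subsets, 14 of the 26 were higher and 4 lower in cultured CD24+ cells, and 8 and 4 in spleen CD24+ cells. Lyz2, which encodes lysozyme, read 11.58, 10.66, 11.45 and 11.12 in cultured CD24+ arrays, against 6.49, 6.42, 7.16 and 6.38 in cultured CD172a+ arrays (4.59 ± 0.19, adjusted p = 1.73e-08). In the spleen the subsets overlapped for Lyz2, at 10.76, 10.73, 10.77 and 10.85 in CD24+ arrays and 10.20, 10.48, 10.81 and 10.75 in CD172a+ arrays. The amidase Naaa and the thioesterase Ppt1 were higher in CD24+ cells in both tissues, Naaa by 3.89 ± 0.12 in culture and 3.41 ± 0.12 in spleen, and Ppt1 by 3.48 ± 0.09 and 2.32 ± 0.09.

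Of 18 other pump subunits and assembly factors, 8 were higher and 5 lower in cultured than in spleen CD24+ cells, and 9 and 6 in CD172a+ cells, but in the deposited values 1 was higher and 16 lower in CD24+ cells, and 2 and 12 in CD172a+ cells. Ncoa7, a protein with a TLDc domain that binds the pump, read 11.48, 11.18, 11.27 and 11.35 in cultured CD172a+ arrays, against 8.74, 8.90, 8.61 and 8.48 in spleen CD172a+ arrays, a centred change of 3.06 ± 0.09, adjusted p = 3.97e-11, and it changed by 2.50 ± 0.09 in CD24+ cells. Between subsets, 4 were higher and 2 lower in CD24+ cells in each tissue, among them Atp6v0a2, higher by 0.45 ± 0.06 in culture and 1.13 ± 0.06 in spleen, and Rogdi, a subunit of the assembly factor RAVE, lower, with differences of -0.87 ± 0.21 in culture and -0.90 ± 0.21 in spleen. Of 24 other lysosomal membrane proteins, 8 were higher and 12 lower in cultured CD24+ cells and 6 and 16 in cultured CD172a+ cells (3 and 17, and 5 and 18, in the deposited values). The macrophage-associated Cd68 was lower in both (-1.81 ± 0.16 and -3.72 ± 0.16), as was the cystine exporter Ctns (-2.01 ± 0.12 and -2.54 ± 0.12), and the peptide and histidine transporter Slc15a3 was higher in cultured CD24+ cells (2.45 ± 0.08).

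Of 19 genes that control MiT/TFE factors or belong to the Ragulator and mTORC1 group, which holds TFEB and TFE3 in the cytosol when nutrients are plentiful, 5 were higher and 8 lower in cultured CD24+ cells and 6 and 8 in cultured CD172a+ cells (3 and 14, and 4 and 12, in the deposited values). Of the Rag GTPases, Rragc was higher in culture (1.55 ± 0.08 in CD24+ and 2.02 ± 0.08 in CD172a+ cells) and Rragb lower (-2.08 ± 0.07 and -1.69 ± 0.07). Fnip2, a partner of folliculin, was higher in CD24+ than in CD172a+ cells in both tissues, by 1.13 ± 0.20 in culture and 2.32 ± 0.20 in spleen. Of 13 genes of hydrolase sorting, 3 were higher and 6 lower in cultured CD24+ cells and 1 and 5 in cultured CD172a+ cells (0 and 9, and 0 and 10, in the deposited values). Cln8, a receptor that moves new hydrolases from the endoplasmic reticulum to the Golgi, was lower in both (-2.78 ± 0.07 and -3.94 ± 0.07), as was the cation-independent mannose phosphate receptor gene Igf2r (-1.80 ± 0.07 and -0.62 ± 0.07). None of the genes of these 5 lists was past the threshold between KO and WT.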

How the data were processed

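The 16 Affymetrix arrays come with a table of log2 signals, deposited by the authors for each probe set. That the scale is log2 follows from the range of 3.06 to 14.6. Background correction, normalisation and summarisation are steps not given in the sources used here. Per the labels' protocols, RNA came from an EZNA MicroElute kit with DNase treatment (TURBO), and NuGEN's Ovation Pico WTA system was used for amplification and labelling. Of 30177 probe sets, 21789 carried 1 gene symbol in the platform annotation, 1621 several and 6767 none. Genes were read from their probe set with the highest mean, which gave 19938 genes, and no member was lost to a filter on low values because none was applied. Atp6v0c is not analysed here.

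Groups were taken from the sample labels. The tests used limma 3.58.1 in R 4.3.3, with 1 mean for each of the 8 groups of 2 arrays in a fit of all 16 arrays (8 residual degrees of freedom), eBayes, 2-sided p values and Benjamini-Hochberg adjustment over all 19938 genes. The threshold was an adjusted p of 0.05. CD24+ minus CD172a+ and culture minus spleen are means over both genotypes. Culture minus spleen was fitted after subtraction of each array's median over the genes tested. For KO minus WT over 8 mice, a mouse's 2 arrays were averaged before the fit. Errors are SEs of the fit. The procedure was tested on simulated data. The 2 arrays of a mouse come from the same animal per the labels, and the correlation across genes of their deviations from the group means was 0.393 in culture KO, 0.205 in culture WT, 0.202 in spleen KO and -0.0957 in spleen WT mice.

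The 36 measured members are all named. Values of every array are given for the 5 highest and 5 lowest called members of each comparison, for Atp6v0d1 and Atp6v0d2, for Tfeb and Tfe3, and, between KO and WT, for the 3 members with the smallest p. Of each wider list up to 4 called genes with the largest changes could be named. Marker genes and the other array values were chosen after their values were seen. The members and lists were chosen with earlier results of these data known. Alternatives were the deposited, centred and quantile-normalised values, the mean of a gene's probe sets, a filter on dim genes, eBayes with a trend, the mouse as a block, fits of only the groups compared, and fits without each array in turn.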

Additional observations from a re-analysis of the deposited data

Results flagged for a closer look

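For 23 members the difference between CD24+ and CD172a+ cells was itself different between culture and spleen (limma interaction past an adjusted p of 0.05, log2, 4 arrays a subset in each tissue). Every value below is the CD24+ minus CD172a+ difference in the culture minus that in the spleen. Among hydrolases it was 2.03 for Gla, 1.88 for Acp5, 1.78 for Man2b1, 1.51 for Asah1, 1.45 for Hexa and 0.84 for Lipa. It was -0.97 for Gusb, -0.87 for Gaa and -0.82 for Naglu. Among pump genes it was 1.29 for Atp6v0d1, 1.18 for Atp6ap2, 1.04 for Atp6v1d, 0.73 for Atp6v1h, 0.69 for Atp6ap1, 0.52 for Atp6v0b, 0.40 for Atp6v1e1, 0.37 for Atp6v1c1 and -0.31 for Atp6v1a. Among membrane proteins it was 1.27 for Mcoln1, 0.43 for Lamp2 and -0.29 for Scarb2. It was 1.00 for Tfeb and 0.38 for Psap. Groups of 2 arrays are too small for a test of single outlying arrays, and none was run.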

How the results depend on the processing

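Values as deposited and quantile normalisation bear on culture minus spleen. In CD24+ cells the deposited values gave 10 members higher and 21 lower, and quantile normalisation 17 lower, against 16 and 11 with centred arrays. In CD172a+ cells the deposited values gave 8 higher, against 13. Under the deposited values the sign turned, counting values past the threshold under either scaling, in CD24+ cells for Atp6v0d1 (-0.016), Atp6v0d2 (-0.14), Atp6v0e (-0.34), Atp6v1f (-0.34), Atp6ap2 (-0.081) and Grn (-0.32), and in CD172a+ cells for Atp6v0d2 (-0.22), Atp6v0e (-0.29), Atp6v1c1 (-0.34), Atp6v1e1 (-0.36), Atp6v1f (-0.21), Neu1 (-0.36) and Grn (-0.37). After quantile normalisation it turned in CD24+ cells for Atp6v0e (-0.40), Atp6v1f (-0.35) and Grn (-0.39), and in CD172a+ cells for Atp6v0d2 (-0.090), Atp6v0e (-0.32), Atp6v1e1 (-0.18), Atp6v1f (-0.14) and Grn (-0.37). It also turned after quantile normalisation for Gla (0.15) and Neu1 (0.19) in CD24+ cells and Atp6v1h (0.04) in CD172a+ cells, with no call on either side. The turns in the deposited values follow from the different array medians of the tissues, and the cause of the others was not tested.

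With 1 array left out, the number of members called lay between 12 and 22 for CD24+ minus CD172a+ in the spleen (7 to 13 higher, 5 to 9 lower), between 21 and 28 in the culture (18 to 22 higher, 3 to 6 lower) and between 23 and 25 for the interaction. For culture minus spleen it lay between 26 and 30 in CD24+ cells and between 30 and 31 in CD172a+ cells. For KO minus WT in cultured CD24+ cells, members were called only without KO replicate 1, where a single KO array remained. The number called was 0 in the other genotype comparisons. With the mouse as a replicate block, 19 members (10 higher, 9 lower) were called in the spleen, 26 (21 and 5) in the culture and 23 (18 and 5) for the interaction. This pairing by mouse changed no count of members by over 1.5 times, and of the other lists it moved 1, hydrolase sorting in the interaction, to 5 genes called, against 3. Groups of 2 arrays limit the smallest changes that can be called, and what limits depth on an array is the signal over background, which was low for Atp6v0d2. Other members lay near or below the array median in culture. Their cultured arrays, median-centred, ranged from -0.78 to -0.45 for Smpd1, -0.32 to 0.05 for Acp5 and -0.06 to 0.11 for Sgsh. The ranges were -0.12 to 0.36 for Naglu, -0.07 to 0.21 for Tfeb, and -0.45 to -0.24 for Lipa in CD172a+ cells. How far these signals stood above background was not tested.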
